A study of Arabidopsis with 4 samples.

Results

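The 26S proteasome is the protease that degrades proteins tagged with ubiquitin in the cytosol and nucleus of plant cells. Its 20S core is a barrel of alpha and beta rings, in which the outer alpha rings form the gate and 3 kinds of beta subunit carry the proteolytic sites. The 19S regulatory particle caps the barrel, with a base that holds a ring of AAA-type ATPases and the ubiquitin receptors, and a lid that holds the deubiquitinase RPN11. In Arabidopsis most subunits are encoded by a pair of similar genes, and the NAC factors NAC53 and NAC78 are known to activate many of these genes together when the proteasome is inhibited.

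The genes described here are those whose description in the deposited table holds the word proteasome and whose mean over the 4 libraries was at least 1 TPM (a transcript level per length, scaled to the same total in each library). The word was found for 57 of the 32833 genes, and 55 of them passed. The lowest mean inside that limit was 1.94 TPM, for PAC2 (AT4G15165), and the highest outside it was 0.148 TPM, for the inhibitor-like gene AT1G48530. The remaining gene, AT4G08140, described as like a regulatory subunit, was listed at 0 in all 4 libraries. By their descriptions 24 of the 55 belong to the 20S core, counting PBE1 and PAG1, whose descriptions name the 20S proteasome in other words. A further 25 are described as 26S regulatory genes, and 6 have other descriptions. By role, 13 genes encode alpha-ring subunits, 11 beta-ring subunits, 7 ATPases of the base, 4 its other subunits and 11 lid subunits. The last 9 are 3 assembly chaperone genes, 1 probable inhibitor gene, 2 RPT6-like ATPase genes, and 3 genes known by a domain or a putative role.

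Transcripts were measured by RNA sequencing in whole seedlings of the mutant jmj28-2 (n = 2 libraries) and of its wild type, Col-0 (n = 2 libraries). Both are in the Col-0 ecotype and were 12 days old, grown on medium with 1% sucrose at 23 °C under 16 h light and 8 h dark. The mutated gene, JMJ28, encodes a putative histone demethylase of the JmjC family, and the comparison asks which transcripts differ when it is mutated. The sources used here do not say where in the gene the mutation lies, or whether replicate libraries were made from independent batches of plants. The p-values therefore measure only how these libraries spread, and that spread may be technical. In whole seedlings, fewer cells of a type and less RNA per cell cannot be told apart.

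JMJ28 (AT4G21430) had 5.45 and 5.72 TPM in jmj28-2, against 7.63 and 7.70 TPM in Col-0, so both mutant libraries lay below both wild-type libraries. Its log2 change was -0.40 (SE 0.0963, limma adjusted p = 0.235).

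Markers of roots and of leaf mesophyll differed between the libraries. Relative to Col-0 means, the median log2 deviation of the 10 root markers was 0.05 in jmj28-2 replicate 1 and -0.59 in jmj28-2 replicate 2. A lower mean in jmj28-2 was found for 9 of 10, where 57.3% of all genes tested were higher. In 3 of 10 both mutant libraries lay below both wild-type libraries, beside 17.6% of all genes tested. The 10 root markers summed to 2333 and 1855 TPM in jmj28-2, against 2212 and 2160 TPM in Col-0, and most of each sum was PYK10, a beta-glucosidase gene. MRN1, a triterpene synthase gene, had 1.94 and 0.70 TPM in jmj28-2, against 2.77 and 3.01 TPM in Col-0 (limma adjusted p = 0.340).

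Of the 8 leaf mesophyll markers, 6 had a lower mean in jmj28-2, 4 had both mutant libraries below both wild-type libraries, and 3 were lower at an unadjusted p under 0.05. Over all genes tested, 17.6% had both mutant libraries below and 4.36% were lower at that unadjusted p. They summed to 85947 and 91661 TPM in jmj28-2, against 94476 and 92379 TPM in Col-0. RBCS2B, a small subunit of Rubisco, had 5554 and 5517 TPM in jmj28-2, against 7170 and 6746 TPM in Col-0 (log2 change -0.33, SE 0.0687, limma adjusted p = 0.219). Its log2 change was -0.18 with quantile normalization and -0.37 with median centring. The 8 markers of dividing cells summed to 155 and 175 TPM in jmj28-2, against 159 and 160 TPM in Col-0, and 5 of 8 were higher. Among them AUR1, a mitotic kinase gene, had 15.15 and 16.82 TPM in jmj28-2, against 13.54 and 14.67 TPM in Col-0 (limma adjusted p = 0.480). None of these markers was at 0 in any library. The median log2 deviation of the leaf mesophyll markers was below Col-0 in both mutant libraries (-0.17 and -0.08). That of the dividing cell markers was -0.05 and 0.15. The root markers were low mainly in jmj28-2 replicate 2, though in 3 of 10 both mutant libraries lay below both wild-type libraries. Marker differences thus went with the genotype only in part, and their part in the results below was not tested.

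Transcripts of most proteasome genes averaged a few percent above Col-0 in jmj28-2, in a narrow range, and 0 of the 55 passed the test. The 55 genes together summed to 3144 and 3081 TPM in jmj28-2, against 2976 and 2928 TPM in Col-0, or 0.315% and 0.308% of the mutant libraries and 0.298% and 0.293% of the wild-type libraries. Both mutant sums lay above both wild-type sums, with a ratio of the means of 1.05. The mean log2 level was higher in jmj28-2 for 49 of the 55 genes, or 89.1%, where 57.3% of all 19764 genes tested were higher. The median log2 change of the 55 was 0.09, beside 0.03 for all genes tested. These log2 changes are jmj28-2 minus Col-0 on log2(TPM + 1), a scale that understates the change of low genes.

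By limma with Benjamini-Hochberg adjustment over all genes tested, 0.0759% of genes were called at an adjusted p under 0.05, 8 higher (0.0405%) and 7 lower (0.0354%). The calls were 5 higher and 7 lower when each library was centred on its median, and 0 in both directions without either one of the Col-0 libraries. None of the 55 was among them, and the smallest adjusted p among them was 0.232. At an unadjusted p under 0.05, 2 of the 55 were higher and 0 lower, or 3.64% of them higher, where 9.5% of all genes tested were higher and 4.36% lower. In 31 of the 55, or 56.4%, both jmj28-2 libraries lay above both Col-0 libraries, where 29% of all genes tested did so. The reverse held for 1 of the 55 and for 17.6% of all genes tested. When each library was centred on its median, 19 of the 55 had both mutant libraries above both wild-type libraries, beside 21.9% of all genes, and the genes with a higher mean numbered 43, beside 47.1% of all genes. With quantile normalization the same counts were 19, beside 23.1% of all genes, and 42, beside 48.8%. Counts over the 55 are not a test, since the genes share the same 4 libraries. Leaving out 1 library moved the log2 change of 42 of the 55 genes by over 1.5 times or turned its sign.

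**Figure D1:**
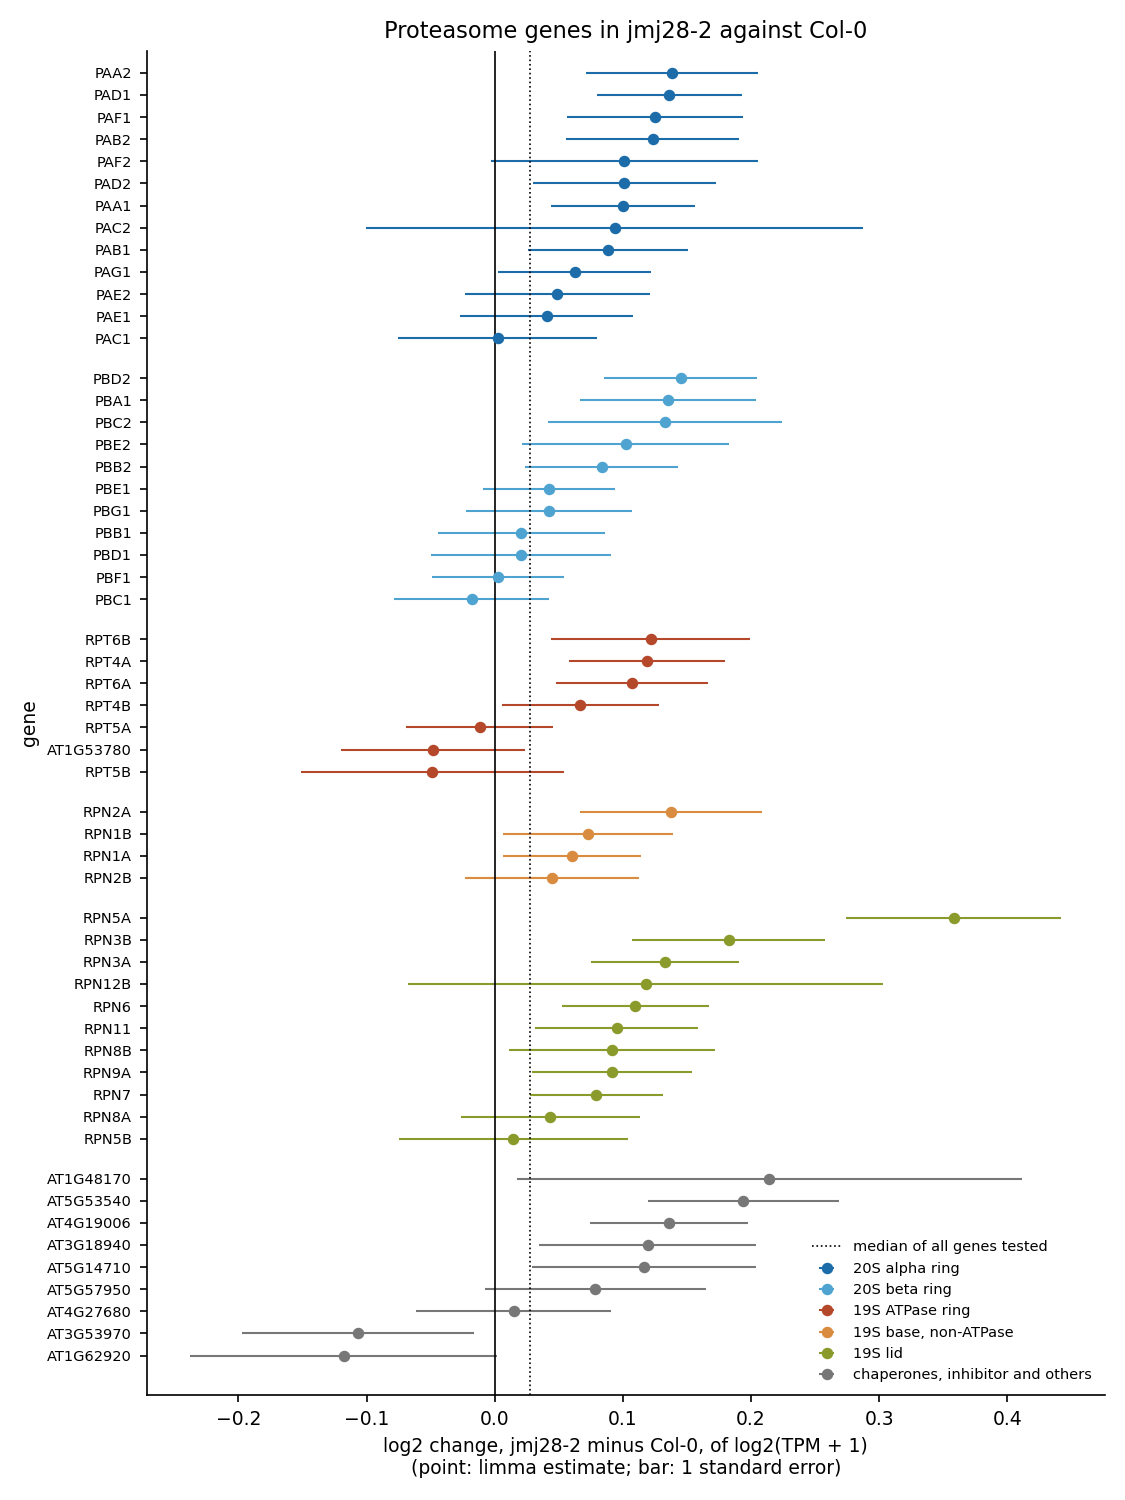
Log2 change of each of the 55 proteasome genes, jmj28-2 minus Col-0, with 1 standard error from limma, ordered by role and by size within a role. Most points lie between 0 and 0.15, with RPN5A farthest to the right at 0.36, and 0 genes passed the test.

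The median proteasome gene lay above its Col-0 mean in both mutant libraries, by different amounts. Relative to each gene's Col-0 mean, the median log2 deviation of the 55 genes was 0.10 in jmj28-2 replicate 1 and 0.06 in replicate 2. Over all genes tested the same medians were 0.06 and 0.0016, so the library with the larger shift of proteasome genes also had the larger shift of all genes. For the 24 core genes the medians were 0.09 and 0.07 in the mutant libraries, and for the 25 regulatory genes 0.11 and 0.06. The Col-0 libraries themselves differed in the core genes, with a median log2 difference of 0.05 for replicate 1 minus replicate 2, and of 0.0058 in the regulatory genes.

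**Figure D2:**
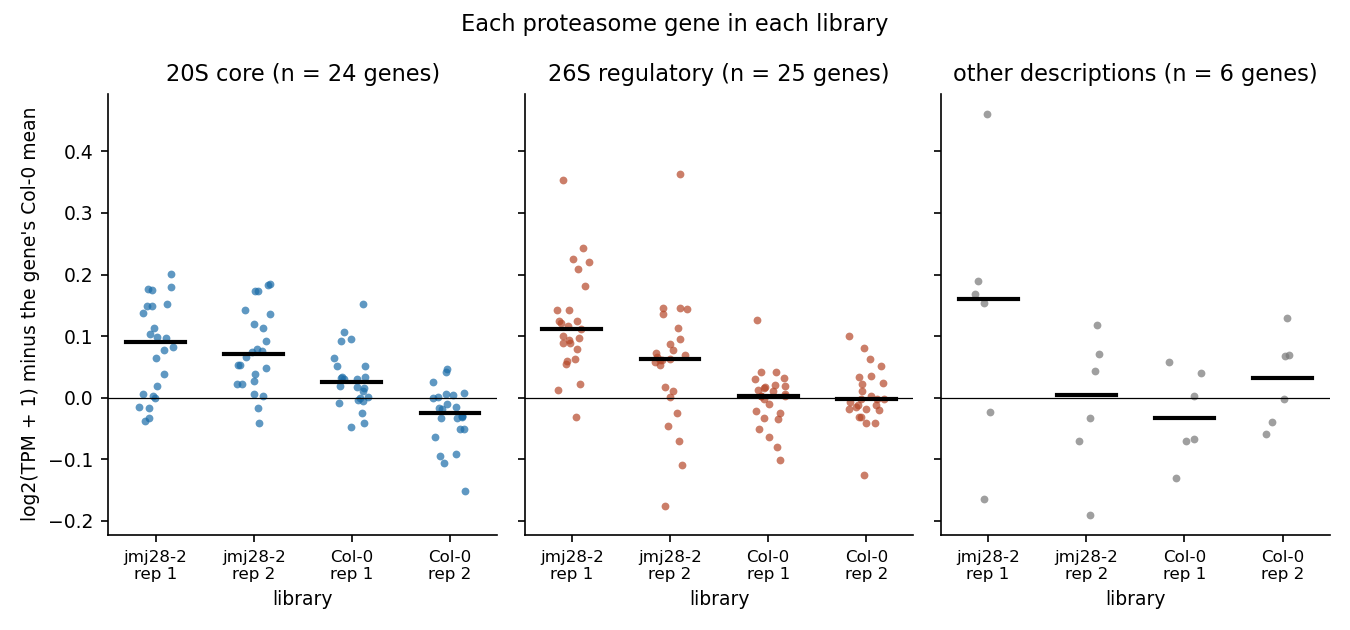
Each proteasome gene in each library, as log2(TPM + 1) minus that gene's mean in Col-0, with black bars at the medians. The medians of the core and regulatory genes lie above 0 in both jmj28-2 libraries, at 0.09 and 0.07 for the core and 0.11 and 0.06 for the regulatory genes, while the Col-0 libraries lie on either side of 0 by construction.

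Core and regulatory genes had nearly the same median change. It was 0.09 for the 24 core genes, of which 23 were higher, and 0.09 for the 25 regulatory genes, of which 22 were higher. In 12 core genes and 16 regulatory genes both mutant libraries lay above both wild-type libraries, beside 29% of all genes tested. With median centring these counts were 7 and 11, beside 21.9% of all genes. Core transcripts summed to 1797 and 1789 TPM in jmj28-2, against 1735 and 1682 TPM in Col-0, a ratio of 1.05. Regulatory transcripts summed to 1232 and 1187 TPM in jmj28-2, against 1136 and 1138 TPM in Col-0, a ratio of 1.06. Without Col-0 replicate 2 the core median was 0.05 and the regulatory median 0.08, and both medians were 0.05 when libraries were centred on their median or quantile normalized.

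**Figure D3:**
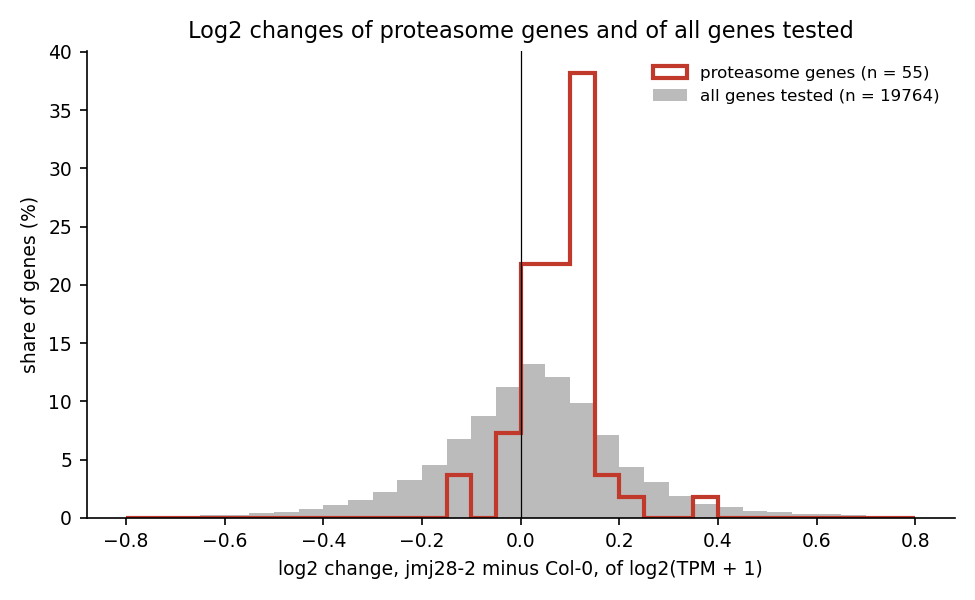
Distribution of log2 changes, jmj28-2 minus Col-0, for the 55 proteasome genes (red line) and all 19764 genes tested (grey), each as a share of its genes in steps of 0.05, with 2.17% of all genes outside the plotted range. The proteasome genes are gathered between 0 and 0.15, with an interquartile range of 0.08 beside 0.22 for all genes tested.

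The spread of changes among the 55 genes was small beside that of all genes, with quartiles at 0.04 and 0.12, where all genes tested had quartiles at -0.09 and 0.13. Levels in this set were mostly well above the filter, from 1.94 to 165 TPM with a median of 49.1 TPM, and the median standard error was 0.0685, beside 0.101 over all genes. All 55 genes had a ratio of means within 1.5-fold of 1, and 45 had a mean between 0 and 15% above that of Col-0.

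The alpha ring forms the gate and the docking face of the barrel. All 13 of its genes had a higher mean log2 level in jmj28-2, with a median log2 change of 0.10. In 7 of them both mutant libraries lay above both wild-type libraries, or in 4 with median centring, beside 29% and 21.9% of all genes. PAD1 had 107.64 and 105.23 TPM in jmj28-2, against 98.94 and 94.59 TPM in Col-0. Its change was the one with the smallest p in this ring and did not pass (log2 change 0.14, SE 0.0564, limma adjusted p = 0.379). PAA2 had 70.22 and 64.36 TPM in jmj28-2, against 61.43 and 60.56 TPM in Col-0 (limma adjusted p = 0.436). PAF1 had 81.24 and 86.91 TPM in jmj28-2, against 79.77 and 74.26 TPM in Col-0 (limma adjusted p = 0.486). In PAA2 and PAF1, as in PAD1, both mutant libraries were above both wild-type libraries.

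The most abundant alpha gene was PAG1, at 137.46 and 129.94 TPM in jmj28-2, against 130.70 and 125.26 TPM in Col-0. The genotypes overlapped. PAC2, a putative second copy of PAC1, was the least abundant, at 1.84 and 2.22 TPM in jmj28-2, against 2.15 and 1.55 TPM in Col-0. PAC1 itself had the smallest change of the ring, with 115.30 and 118.47 TPM in jmj28-2 lying between the 124.39 and 109.45 TPM of the Col-0 libraries. The other alpha genes, PAA1, PAB1, PAB2, PAD2, PAE1, PAE2 and PAF2, had ratios of jmj28-2 to Col-0 means between 1.03 and 1.09.

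The beta ring carries the proteolytic sites, in PBA1 (caspase-like), PBB1 and PBB2 (trypsin-like) and PBE1 and PBE2 (chymotrypsin-like). Of its 11 genes 10 had a higher mean log2 level, with a median log2 change of 0.04. In 5 both mutant libraries lay above both wild-type libraries, or in 3 with median centring, where the shares of all genes were 29% and 21.9%. PBA1 had 124.59 and 131.31 TPM in jmj28-2, against 121.69 and 111.32 TPM in Col-0 (log2 change 0.14, SE 0.0687, limma adjusted p = 0.455). Without Col-0 replicate 2 its log2 change was 0.07. PBD2, a non-catalytic subunit, had 40.06 and 39.86 TPM in jmj28-2, against 36.49 and 35.59 TPM in Col-0 (log2 change 0.15, SE 0.0597, limma adjusted p = 0.377). In both genes the genotypes did not overlap, and neither passed the test.

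PBC2, also non-catalytic, had 45.91 and 43.30 TPM in jmj28-2, against 43.74 and 37.62 TPM in Col-0, with one mutant library below the higher wild-type one (limma adjusted p = 0.568). PBF1 was the most abundant of the 55 genes, and its genotypes overlapped, at 164.61 and 165.48 TPM in jmj28-2, against 166.92 and 162.57 TPM in Col-0. Its log2 change of 0.0027 had an SE of 0.0516. PBE2, the least abundant of the ring, had 23.34 and 20.94 TPM in jmj28-2, against 20.55 and 20.51 TPM in Col-0, and its partner PBE1 111.80 and 112.57 TPM in jmj28-2, against 108.42 and 109.36 TPM. For both copies of this catalytic subunit the mutant libraries lay above the wild-type ones, by ratios of 1.08 and 1.03. In the trypsin-like pair, both mutant libraries lay above both wild-type libraries in PBB2 (ratio 1.06), and the genotypes overlapped in PBB1 (ratio 1.02). The share of PBB1 in the pair also overlapped between the genotypes. PBC1 was the core gene with a lower mean log2 level in jmj28-2, at 87.84 and 84.99 TPM, against 84.98 and 90.08 TPM in Col-0.

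Among the ATPases of the base, which unfold substrates and open the gate, 4 of 7 genes had a higher and 3 a lower mean log2 level, with a median log2 change of 0.07. RPT4A had 48.01 and 47.61 TPM in jmj28-2, against 42.87 and 45.05 TPM in Col-0 (log2 change 0.12, SE 0.0610, limma adjusted p = 0.458). RPT6A had 71.62 and 68.19 TPM in jmj28-2, against 65.62 and 64.00 TPM in Col-0 (limma adjusted p = 0.489). RPT6B, its neighbour on chromosome 5, had 28.11 and 25.79 TPM in jmj28-2, against 25.41 and 23.94 TPM in Col-0 (limma adjusted p = 0.542). In these genes and in RPT4B (ratio 1.05) the mutant libraries were above the wild-type ones. The count was 4 of 7, and also 4 with median centring, beside 29% and 21.9% of all genes.

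RPT5A, the most abundant of the 7, had 108.27 and 103.21 TPM in jmj28-2, against 104.92 and 108.27 TPM in Col-0. RPT5B, the least abundant, had 25.74 and 21.41 TPM in jmj28-2, against 24.64 and 24.00 TPM in Col-0. AT1G53780, described as an ATPase of the regulatory complex, had 32.05 and 29.35 TPM in jmj28-2, against 31.80 and 31.70 TPM in Col-0. These are the 3 ATPase genes with a lower mean, their genotypes overlapped, and each turned positive when jmj28-2 replicate 2 was left out.

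Of the non-ATPase subunits of the base, RPN1 and RPN2 are its large scaffold proteins, and RPN1 also docks ubiquitin-like proteins. All 4 genes had a higher mean log2 level, and 0 passed. In 3 both mutant libraries lay above both wild-type libraries, or in 1 with median centring, beside 29% and 21.9% of all genes. RPN2A had 65.78 and 59.48 TPM in jmj28-2, against 57.27 and 56.29 TPM in Col-0 (log2 change 0.14, SE 0.0709, limma adjusted p = 0.461). Its log2 change was 0.07 without jmj28-2 replicate 1 and 0.21 without jmj28-2 replicate 2. RPN1A, the most abundant, had 71.19 and 71.36 TPM in jmj28-2, against 68.22 and 68.40 TPM in Col-0 (limma adjusted p = 0.658), so libraries of one genotype were closer to each other than to those of the other. Its log2 change was 0.06, or 0.02 with median centring. RPN1B, the least abundant, had 28.51 and 27.70 TPM in jmj28-2, against 27.28 and 26.07 TPM in Col-0 (limma adjusted p = 0.668). RPN2B overlapped between the genotypes, with a ratio of 1.03.

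The largest log2 change of the 55 genes was in the lid. RPN5A (AT5G09900, listed under the symbol EMB2107), a scaffold subunit of the lid, had 58.06 and 58.49 TPM in jmj28-2, against 42.13 and 48.59 TPM in Col-0. Both mutant libraries lay above both wild-type libraries, and the mutant pair was close while the wild-type pair was not. The ratio of the means was 1.28, with a log2 change of 0.36 (SE 0.0840, unadjusted p = 0.00738, limma adjusted p = 0.232), which did not pass. Over the 12 alternative settings the log2 change ran from 0.26 to 0.46 and the adjusted p from 0.181 to 0.564. Its copy RPN5B had 18.39 and 16.24 TPM in jmj28-2, against 16.69 and 17.52 TPM in Col-0, with a log2 change of 0.01 (SE 0.0895). Expressed as shares, these same values put RPN5A at 75.9% and 78.3% of the pair in jmj28-2, against 71.6% and 73.5% in Col-0.

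The other lid genes had smaller changes, and all 11 had a higher mean log2 level in jmj28-2 (median log2 change 0.10). In 8 of the 11 both mutant libraries lay above both wild-type libraries, or in 5 with median centring, beside 29% and 21.9% of all genes. RPN3A, another lid scaffold subunit, had 49.76 and 50.57 TPM in jmj28-2, against 46.16 and 45.16 TPM in Col-0 (log2 change 0.13, SE 0.0578, limma adjusted p = 0.394). Its copy RPN3B had 26.50 and 25.11 TPM in jmj28-2, against 21.79 and 23.46 TPM in Col-0 (log2 change 0.18, SE 0.0752, limma adjusted p = 0.377). In both copies the genotypes stood apart.

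RPN7, the most abundant lid gene, had 122.90 and 121.22 TPM in jmj28-2, against 116.41 and 114.57 TPM in Col-0 (limma adjusted p = 0.552). RPN11, the deubiquitinase that removes ubiquitin chains from substrates, had 88.59 and 93.70 TPM in jmj28-2, against 87.74 and 82.79 TPM in Col-0 (limma adjusted p = 0.558). In both genes the mutant libraries were above the wild-type ones. RPN12B, a putative second copy of RPN12A, was the least abundant at 2.47 and 1.99 TPM in jmj28-2, against 2.24 and 1.72 TPM in Col-0. RPN6, RPN8A, RPN8B and RPN9A had ratios between 1.03 and 1.08, with overlapping genotypes in RPN8A.

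Among the genes given no subunit name here, AT5G53540, described as RPT6-like, had 24.62 and 22.94 TPM in jmj28-2, against 21.12 and 20.19 TPM in Col-0. With RPN5A it was the other gene at an unadjusted p under 0.05 (log2 change 0.19, SE 0.0745, unadjusted p = 0.0465, limma adjusted p = 0.351). The second RPT6-like gene, AT4G27680, had 17.75 and 19.01 TPM in jmj28-2, against 17.85 and 18.50 TPM in Col-0, with overlapping genotypes. AT4G19006, a PCI-domain protein gene (a domain found in lid subunits), had 33.06 and 32.24 TPM in jmj28-2, against 29.68 and 29.56 TPM in Col-0 (limma adjusted p = 0.410).

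Assembly chaperones help the rings of the core to form. Their 3 genes all had higher means, and in AT3G18940 (17.34 and 16.15 TPM in jmj28-2, against 16.00 and 14.68 TPM in Col-0, limma adjusted p = 0.584) and AT5G14710 (ratio 1.09) the genotypes did not overlap. Both mutant libraries thus lay above both wild-type libraries in 2 of the 3, beside 29% of all genes tested. AT1G48170 did overlap, at 8.99 and 6.09 TPM in jmj28-2, against 5.63 and 6.94 TPM in Col-0. Its log2 change was 0.21, or -0.03 without jmj28-2 replicate 1. A lower mean in jmj28-2 was seen in AT3G53970, a probable proteasome inhibitor gene, at 33.70 and 29.89 TPM in jmj28-2, against 32.58 and 36.00 TPM in Col-0 (log2 change -0.11, SE 0.0907). Its genotypes overlapped, and the log2 change was -0.02 without jmj28-2 replicate 2, -0.19 without jmj28-2 replicate 1, -0.04 without Col-0 replicate 2 and -0.18 without Col-0 replicate 1. It was also seen in AT1G62920, which holds the domain of the maturation factor UMP1, at 4.31 and 4.67 TPM in jmj28-2, against 4.68 and 5.24 TPM in Col-0 (log2 change -0.12, SE 0.120). AT1G62920 was the 1 gene of the 55 with both mutant libraries below both wild-type libraries, and its log2 change was -0.05 without Col-0 replicate 2, -0.07 without jmj28-2 replicate 1 and -0.19 without Col-0 replicate 1.

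Known subunit genes whose descriptions lack the word were RPT1A, RPT2A, RPT2B, RPT3, RPN10, RPN12A and RPN13, 7 in all. Of these 6 had a higher mean log2 level in jmj28-2 and in the same 6 the genotypes did not overlap, or in 3 with median centring, where the shares of all genes were 29% and 21.9%. The median log2 change was 0.08, and 0 passed the test. RPT2B had 39.19 and 39.99 TPM in jmj28-2, against 35.35 and 35.67 TPM in Col-0 (log2 change 0.15, SE 0.0596, unadjusted p = 0.0488, limma adjusted p = 0.358). The ubiquitin receptor RPN10 had 93.16 and 91.23 TPM in jmj28-2, against 84.01 and 88.35 TPM in Col-0 (limma adjusted p = 0.521). RPN13, the other receptor, overlapped at 32.70 and 29.87 TPM in jmj28-2, against 30.67 and 32.19 TPM in Col-0.

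With copies summed and these 7 genes included, the level of 32 subunits could be set side by side, per length of transcript. AT1G53780 and AT4G19006 were left out because no annotation used here names their subunit, so a sum for RPT1 or RPN9 may lack a copy. The 14 core subunits, each present in equal number in the particle, ran from 87.3 TPM for PBD to 166 TPM for PAA on average over the 4 libraries, a 1.90-fold range with a median of 126 TPM. The 18 regulatory subunits ran from 31.4 TPM for RPN13 to 156 TPM for RPT2, with a median of 88.6 TPM. Within the regulatory particle, the ATPases had a median of 115 TPM and the lid subunits one of 76.3 TPM. In 24 of the 32 both mutant libraries lay above both wild-type libraries, and in 0 below, where 29% and 17.6% of all single genes did so. With median centring 13 lay above, beside 21.9% of single genes, and 1 below. The ratio of jmj28-2 to Col-0 ran from 0.988 for RPT5 to 1.21 for RPN5, with a median of 1.06.

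**Figure D4:**
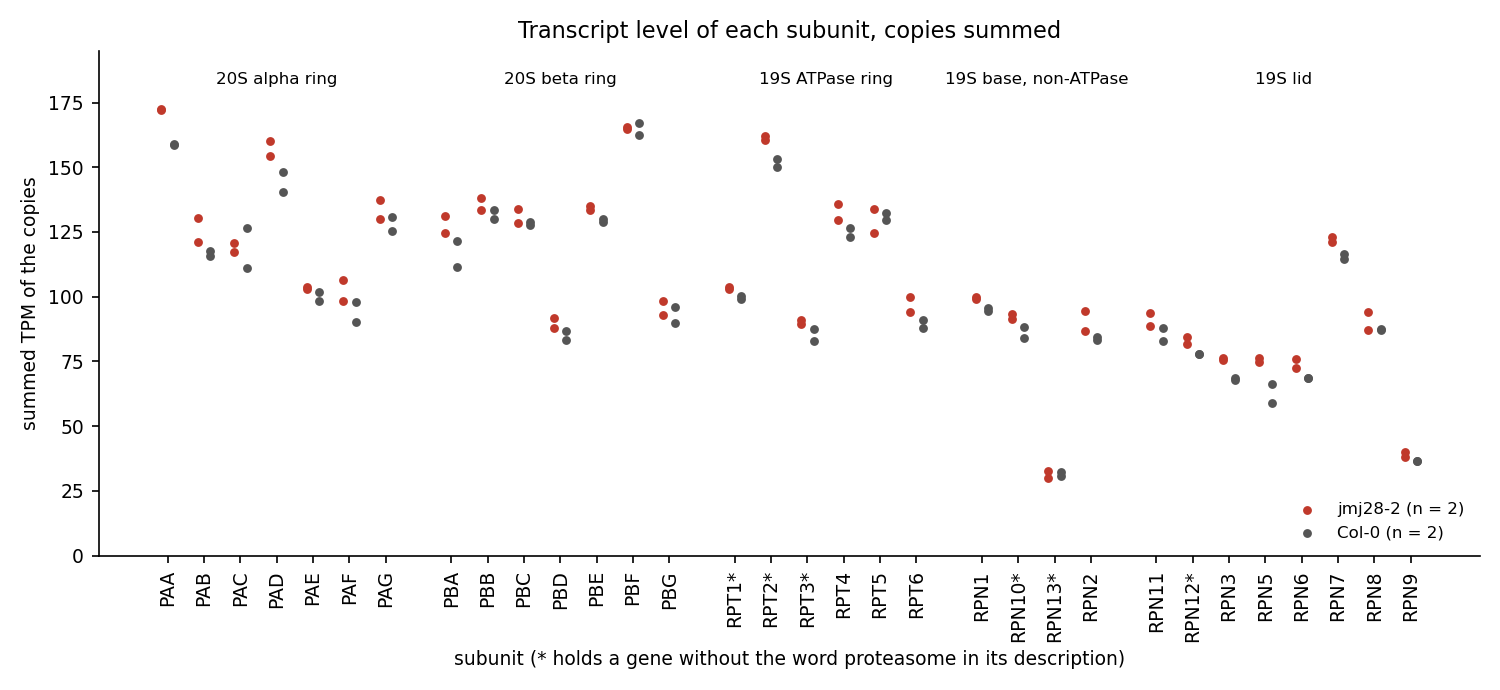
Transcript level of each of 32 subunits in each library, in TPM summed over the copies of the subunit, with jmj28-2 in red and Col-0 in grey. Core subunits lie between 83.4 and 173 TPM, RPN13 is lowest near 31.4 TPM, and RPN5 has the largest ratio, at 76.5 and 74.7 TPM in jmj28-2, against 58.8 and 66.1 TPM in Col-0.

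The balance between duplicated genes differed most between the genotypes in RPN5. For 20 pairs, the mean share of the more abundant copy differed between jmj28-2 and Col-0 by a median of 0.613 percentage points, and by 4.54 points for RPN5A, the largest. In 15 pairs the shares of the genotypes overlapped. They stood apart upward in 2 pairs and downward in 3, where 29% and 17.6% of all single genes did so in their levels. Besides RPN5, RPN2A had the higher share in both jmj28-2 libraries (69.5% and 68.7%, against 67.8% and 67.6% in Col-0). The shares of RPT2A, PAB1 and PBD1 were lower in both jmj28-2 libraries. PBD1 made up 54.3% and 56.5% of its pair in jmj28-2, against 57.9% and 57.3% in Col-0. The copies themselves ran from near parity, in PAE2 and PAE1 (1.03-fold), to a 60.3-fold excess of PAC1 over PAC2. How reads were divided among similar copies is an estimate, so shares are less certain than sums, and none of these differences was tested.

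**Figure D5:**
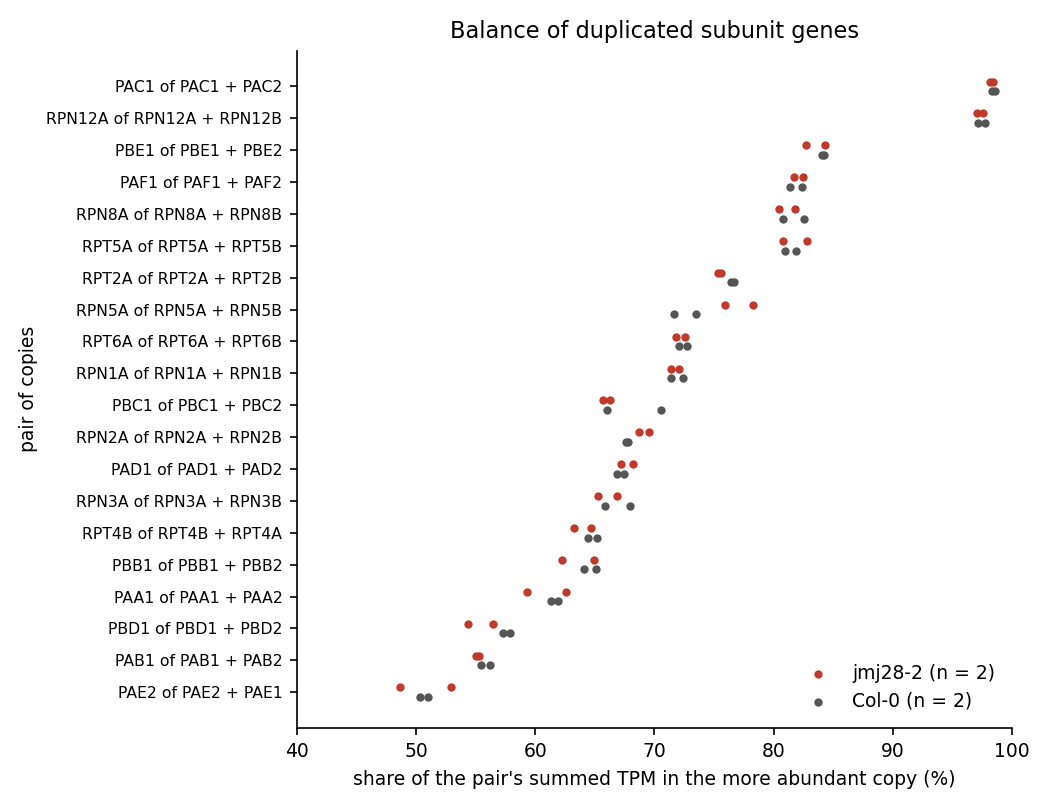
Share of the more abundant copy in the summed TPM of each of 20 pairs, in percent, with 1 point per library and jmj28-2 (red) drawn above Col-0 (grey). RPN5A stands apart at 75.9% and 78.3% in jmj28-2, against 71.6% and 73.5% in Col-0, while the shares of 15 pairs overlap.

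Around the proteasome, 0 genes of the ubiquitin pathway lists passed the test. With median centring 1 of 7 polyubiquitin and E1 genes and 7 of 17 genes of the shuttle list had a higher mean in jmj28-2. The share of all genes was then 47.1%, and both counts were lower than in the values as deposited. As deposited, 57.3% of all genes tested were higher, with a median log2 change of 0.03. Polyubiquitin and E1 genes had 4 of 7 members higher (median log2 change 0.0072). UBQ14, a polyubiquitin gene, had 208.24 and 187.53 TPM in jmj28-2, against 228.67 and 220.18 TPM in Col-0 (limma adjusted p = 0.353). Shuttle receptors, CDC48 proteins and deubiquitinases had 12 of 17 higher (median 0.03), with the CDC48 adaptor PUX1 at 24.46 and 25.12 TPM in jmj28-2, against 22.63 and 20.62 TPM in Col-0 (limma adjusted p = 0.369).

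The activator genes overlapped between genotypes. NAC53 had 10.09 and 8.90 TPM in jmj28-2, against 10.75 and 9.72 TPM in Col-0 (limma adjusted p = 0.712), and NAC78 36.12 and 36.47 TPM in jmj28-2, against 35.47 and 36.86 TPM in Col-0. The COP9 signalosome, a complex built like the lid, had 9 of 10 genes higher, beside 57.3% of all genes tested, with a median log2 change of 0.07. In 4 of the 10 both mutant libraries lay above both wild-type libraries, beside 29% of all genes tested. One of these was CSN6B, at 8.64 and 8.53 TPM in jmj28-2, against 7.74 and 7.07 TPM in Col-0 (limma adjusted p = 0.447). With median centring 4 of the 10 lay above, beside 21.9% of all genes, and 8 had a higher mean, beside 47.1%. With quantile normalization the counts were 3, beside 23.1%, and 8, beside 48.8%.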

How the data were processed

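Per the labels' protocols, RNA was extracted from whole seedlings. The deposited file is labelled FPKM, but its 4 columns each sum to between 998943 and 999014. That is a property of TPM, which is how the deposited values were read. TopHat, RSEM, edgeR and the build TAIR10 are named in the submitters' processing notes, without versions, and no source used here gives filters or strand. Because depth is lost in TPM, no counting interval is given. Columns were matched to libraries by name, with 0 left unmatched.

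The 19764 genes with a mean of at least 1 TPM were fitted as log2(TPM + 1) with limma 3.58.1 under R 4.3.3. The model held genotype alone, with trended moderation and 3.18 prior degrees of freedom added to 2 residual ones. The two-sided p-values were adjusted over all genes tested by the Benjamini-Hochberg method. The fit was run on simulated data with planted changes larger than those of the proteasome genes, which does not show whether changes of their size could be called. With 2 libraries per genotype, the smallest two-sided p of an exact permutation test is 0.333. Values per library are given for JMJ28, for the 3 genes with the smallest p and the highest and lowest level in each role, and for the smallest p of each list, while other genes with values were chosen after their values were seen. Members, lists and roles were chosen with earlier results of these data known. Names come from the table, or from RefSeq (TAIR10.1), which matched 32548 of 32833 identifiers and all 55 members. Reads of similar copies and overlapping genes are divided by estimation. Alternatives were another pseudocount and filters, moderation without trend or robust, quantile normalization, median centring, leaving out each library and a replicate block. Figures were drawn with matplotlib 3.10.9.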

Additional observations from a re-analysis of the deposited data

How the results depend on the processing

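Under all 12 alternatives 0 of the proteasome genes were called in either direction, and 42 to 49 had a higher mean log2 level (47 of 52 when a mean of 5 TPM was required). The number with both mutant libraries above both wild-type libraries, an outcome added after seeing the data together with its counts by class, role and subunit, was 19 with quantile normalization and 19 with median centring, and 31 under the other settings that keep 4 libraries. The core median, 0.09 as reported, was 0.0513 with quantile normalization and 0.0525 with median centring, and 0.0493 to 0.0933 when 1 library was left out. The regulatory median, 0.09, was 0.0526 and 0.0529 under those scalings, and 0.0621 to 0.1123 when 1 library was left out. Over the whole table, the 8 genes called higher were 4 without a filter, 3 without trend, 29 with robust fitting, 5 with median centring and 0 to 10 on leaving out 1 library, where the lone library of a genotype is assumed to vary like the other genotype. The 7 called lower were 4 when a mean of 5 TPM was required, 14 under robust moderation and 0 to 1 on leaving out 1 library. The cause was not tested.

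Signs turned in 19 of the 55 genes under some alternative. With quantile normalization and median centring, log2 changes were -0.0233 and -0.0237 for AT4G27680, -0.0292 and -0.0362 for PAC1, -0.026 and -0.0176 for PBB1, -0.0206 and -0.0181 for PBD1, -0.0524 and -0.0358 for PBF1, and -0.0268 and -0.024 for RPN5B, and for RPN2B -0.0004 with quantile normalization. On leaving out 1 library, log2 changes ran from -0.1098 to 0.0132 for AT1G53780, from -0.0459 to 0.0225 for RPT5A, from -0.176 to 0.0788 for RPT5B, from -0.0321 to 0.0617 for AT4G27680, from -0.0892 to 0.0939 for PAC1, from -0.0589 to 0.246 for PAC2, from -0.0168 to 0.0977 for PAE1, from -0.0159 to 0.1137 for PAE2, from -0.0333 to 0.4614 for AT1G48170, from -0.0328 to 0.0746 for PBB1, from -0.0594 to 0.0237 for PBC1, from -0.038 to 0.0788 for PBD1, from -0.0162 to 0.0217 for PBF1, from -0.0046 to 0.0897 for PBG1, from -0.0085 to 0.2439 for RPN12B, from -0.0702 to 0.0993 for RPN5B, from -0.0252 to 0.1123 for RPN8A and from -0.0017 to 0.1587 for AT5G57950. The sign of RPN13, which is not among the 55, also turned, with a range from -0.0707 to 0.0558.

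No source used here says whether same-numbered libraries share a batch. Deviations of same-numbered libraries from their genotype means correlated at r = 0.0162 over 19764 genes. With 2 libraries per genotype this value cannot decide that question, and a shared batch was not tested. With the replicate block, 12 genes were called higher and 6 lower over the whole table, 0 proteasome genes were called, and the core and regulatory medians stayed at 0.0911 and 0.0914.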
